A study of Mus musculus with 24 samples.

Results

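The 43 genes described here are a list of interferon-response and antigen-presentation genes taken by symbol from the 23235 rows of a table of mean expression in T11 cells. All 43 were in the table, and 19 averaged 1 FPKM or more over its 8 columns, as did 10262 genes of the whole table. FPKM is a count of sequenced fragments scaled by transcript length and library size, so levels can be compared between genes. By role the list holds 8 transcription factors or coactivators, 3 RNA sensors, 6 genes of the ISG15, ubiquitin and ADP-ribose pathways, 19 antiviral effectors and 7 genes of antigen presentation.

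T11 cells come from a claudin-low mammary tumour of the mouse, and all samples are labelled as carrying a luciferase gene. There were 8 groups of 3 biological replicates: PBS, or 5 µM of Omomyc, FPP-1746 or FPP-1746-Omomyc, each for 3 h and for 6 h. Omomyc is a mutant dimerisation domain of MYC that competes for its partner MAX, and in the fusion it is carried by FPP-1746, a peptide that enters cells. For the fusion at 6 h, the treatment tag of all 3 samples reads 3 h, and the time in their titles and in the table's column was used.

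Interferons are secreted proteins that bind surface receptors, whose kinases activate transcription factors, among them STAT2. With IRF9 it forms part of a complex that binds the interferon-stimulated response element in the promoters of antiviral genes. Cytosolic sensors of foreign RNA act upstream by switching on the interferon genes through MAVS and IRF3. The same response raises the machinery by which nearly all cells show peptides to T cells, in which class I heavy chains pair with beta-2-microglobulin and are loaded with peptide in the endoplasmic reticulum.

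Only the average of each group was available, so no error can be given, no test was possible, and no difference below has a replicate check. Among genes averaging 1 FPKM or more, a gene was called higher or lower where FPKM + 1 differed at least 2-fold. Log2 ratios are of FPKM + 1, which understates differences of genes with low values. Column sums ran from 445657 FPKM in the fusion at 6 h to 594951 in the fusion at 3 h. A rough reading of the steps between low values, from 27 to 48 genes per column, put 1 FPKM of a 1000-base transcript at 33.5 to 52.9 fragments. The reading was confined to a preset range of values, which limits the answers it could give. Each column is also an average of replicates, so a step need not be 1 fragment of 1 library. The 8 mesenchymal markers checked were all above 1 FPKM on average, with a summed level of 4011 to 6357 FPKM. The 9 epithelial markers summed to at most 0.197 FPKM, and 4 of them were at 0 throughout. Macrophage markers summed to 11.2 to 121 FPKM. Most of that came from Cd14, which stood at 10.1 FPKM in PBS and 77.4 with the fusion at 3 h, and at 12.9 and 118 at 6 h. Cd68 was at 1.05 and 3.49 FPKM at 3 h (log2 1.13, past the 2-fold rule used below), and at 1.38 and 2.75 at 6 h. The other 7 macrophage markers summed to at most 0.143 FPKM, and Emr1 was at 0; the part of these markers in the results was not tested. Dendritic markers summed to at most 0.279 FPKM, those of T, NK or B cells to 0.0454, and endothelial markers to 0.182. In RNA from whole cultures, fewer cells of a type and less RNA per cell cannot be told apart.

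Promoters are shown first because many of these genes share a short sequence to which the interferon-activated complex binds. Windows from 250 bases before to 50 bases after the gene start came from RefSeq, build GRCm38.p6, and 34 of the 43 genes matched by symbol. The letters GAAA, any pair of bases and GAAA again, the core of the interferon-stimulated response element, were found on either strand in a window of 16 of those 34 genes, 47.1%, against 3.99% of the 27025 symbols with a window. Of the 34, 5 had more than 1 window, and a match in any of them counts once per gene. They were as frequent in genes with little RNA as in the rest: 8 of 17 with a mean under 1 FPKM and 8 of 17 above it. The gamma-activated letters TTCNNNGAA were found for 7 genes, 20.6% against 9.55% of symbols, and CCAAT for 14, 41.2% against 41.1%. An NF-kB type match, GGG, any pair of bases and TTTCC, was found for 2 genes, Irf2 and B2m, 5.88% against 1.89%. The E-box CACGTG, which MYC and MAX bind, was found for 1 gene, Trim25, 2.94% against 8.09%. Motifs may overlap each other, and a match is a description of letters, not of binding. The 250 bases before the start are given for 5 genes on which the results turn, 5′ to 3′ on the gene's strand. Capitals mark matches to the response element in Isg15 (3, overlapping), Bst2 (2, overlapping), B2m (1) and Ifit1 (2, read on the opposite strand), and the E-box in Trim25.
Isg15, chr4:156200819-156201068, minus strand: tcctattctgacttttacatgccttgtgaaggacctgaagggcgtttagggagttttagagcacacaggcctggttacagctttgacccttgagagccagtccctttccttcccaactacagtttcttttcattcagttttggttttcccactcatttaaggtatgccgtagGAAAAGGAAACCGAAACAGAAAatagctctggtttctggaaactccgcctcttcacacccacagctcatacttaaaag
Bst2, chr8:71537473-71537722, minus strand: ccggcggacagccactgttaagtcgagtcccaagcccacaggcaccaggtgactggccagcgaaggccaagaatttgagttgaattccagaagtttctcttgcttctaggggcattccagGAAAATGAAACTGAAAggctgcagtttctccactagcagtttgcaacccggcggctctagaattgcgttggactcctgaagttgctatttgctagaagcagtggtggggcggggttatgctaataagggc
B2m, chr2:122147437-122147686, plus strand: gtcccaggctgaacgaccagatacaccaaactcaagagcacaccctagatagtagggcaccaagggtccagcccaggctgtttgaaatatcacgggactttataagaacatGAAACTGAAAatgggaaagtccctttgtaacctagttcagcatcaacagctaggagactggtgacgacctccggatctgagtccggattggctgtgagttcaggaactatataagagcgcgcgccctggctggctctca
Ifit1, chr19:34640639-34640888, plus strand: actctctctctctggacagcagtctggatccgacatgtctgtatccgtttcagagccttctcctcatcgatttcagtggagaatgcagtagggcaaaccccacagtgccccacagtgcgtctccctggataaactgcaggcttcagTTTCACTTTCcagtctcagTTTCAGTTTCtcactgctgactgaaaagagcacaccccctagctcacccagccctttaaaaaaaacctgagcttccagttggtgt
Trim25, chr11:88999153-88999402, plus strand: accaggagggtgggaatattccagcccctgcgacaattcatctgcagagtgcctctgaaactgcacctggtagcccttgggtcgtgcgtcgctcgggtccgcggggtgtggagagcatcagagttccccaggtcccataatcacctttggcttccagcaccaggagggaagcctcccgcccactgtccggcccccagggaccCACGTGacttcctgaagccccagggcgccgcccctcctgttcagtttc

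Of the 19 genes above the level filter, 1 was higher with the fusion than with PBS at 3 h (B2m) and 1 was lower (Trim25). The background over all tested genes was 6.13% higher and 4.42% lower. At 6 h none was higher (background 7.13%) and none was lower (3.34%). At 2-fold the shares were thus near or under the background. At 1.5-fold the share higher at 3 h was above its background of 15.7%. The 1.5-fold shares lower at 3 h, and in either direction at 6 h, were not above theirs. The median log2 ratio of the 19 was 0.16 at 3 h, with a range from -1.10 to 1.03, beside 0.0034 over all tested genes. At 6 h it was 0.21, with a range from -0.62 to 0.79, beside -0.026. A looser rule took a difference of any size. The fusion column lay above PBS, Omomyc and FPP-1746 at both times for 8 of the 19 (background 25.8%). It lay below all of them at both times for 4 (27.1%). Those above were Irf1, Bst2, Ifitm3, Ifi35, B2m, H2-K1, H2-D1 and H2-T23, and those below were Irf3, Parp9, Ifit2 and Rtp4.

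Neither part of the fusion alone gave a call at 2-fold, though FPP-1746 at 6 h gave many smaller low values, which are described at the end. FPP-1746 gave no call at 3 h (background 0.614%) or at 6 h (0.555%), with medians of 0.021 and -0.057. Omomyc gave none at 3 h (0.614%) or at 6 h (0.682%), with medians of 0.031 and -0.0080. At the same dose and time, the fusion over FPP-1746 gave no call at 3 h (9.87%) or 6 h (10.1%). The fusion over Omomyc gave 1 at 3 h, B2m with a log2 ratio of 1.00 (background 9.33%), and none at 6 h (9.66%). The medians were 0.031 and 0.34 over FPP-1746 and 0.076 and 0.33 over Omomyc, and an interval of these differences cannot be had from averages. Between the PBS columns of 6 h and 3 h there was no call (0.867%).

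**Figure D1:**
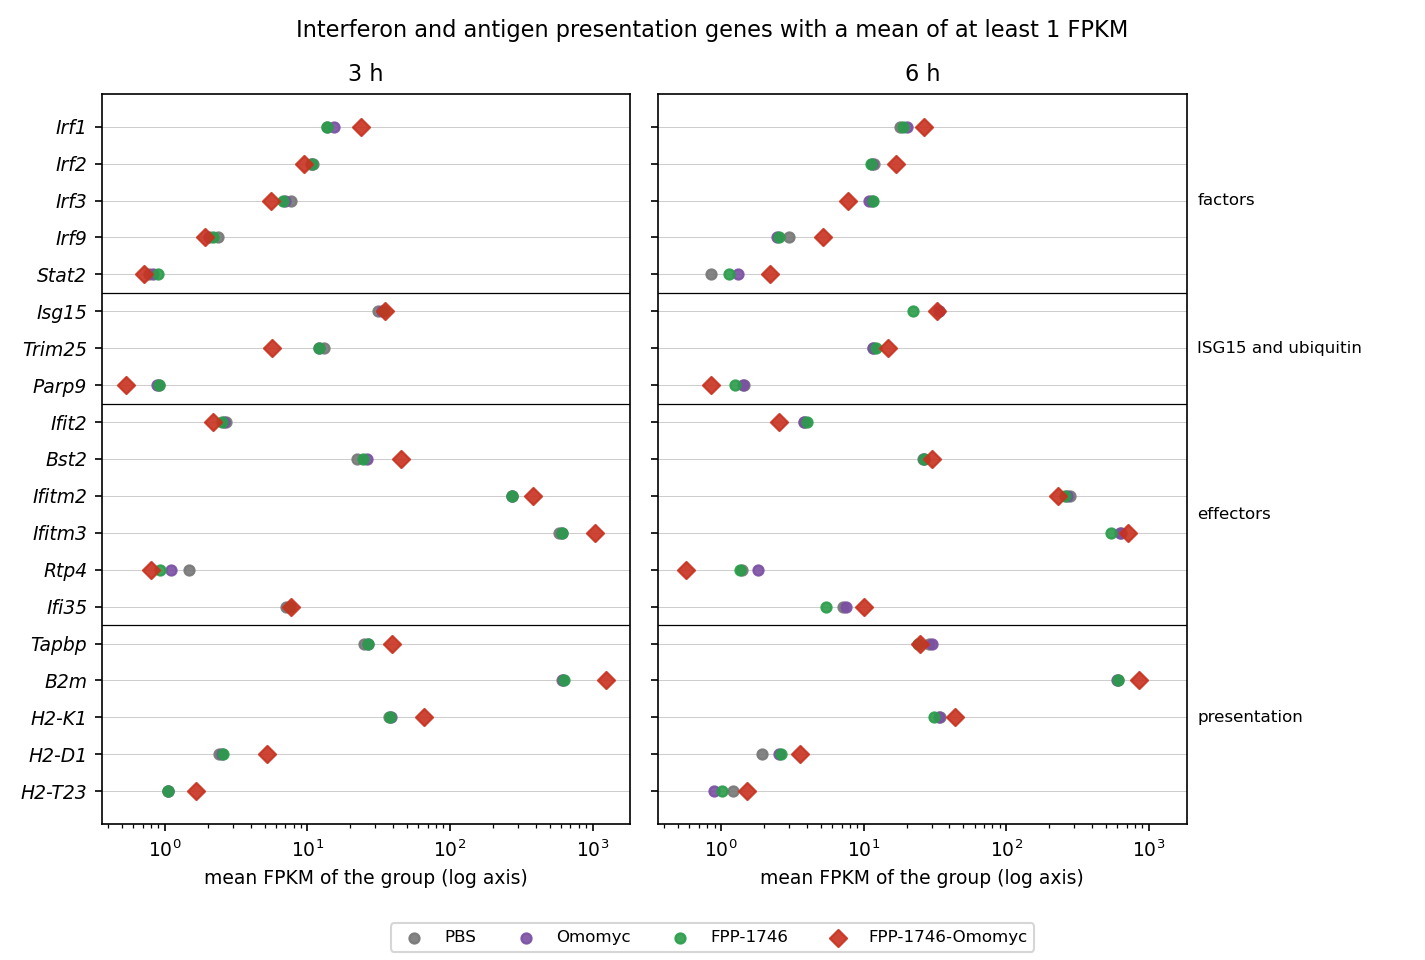
Mean FPKM on a log axis of the 19 genes averaging 1 FPKM or more, with the 3 h columns on the left and the 6 h columns on the right; each point is 1 averaged group and carries no error. At 3 h the fusion (diamonds) lies right of the other treatments for all 5 genes of presentation, as for 46% of all tested genes. The other 3 treatments mostly overlap.

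The transcription factors were mostly under the other columns at 3 h and over them at 6 h. At 3 h the fusion lay below the other 3 treatments for 4 of the 5 measured factors, and at 6 h it lay above them for 4 of 5. Over all 19 genes it was above for 11 and below for 8 at 3 h (backgrounds 46% and 45.9%), and above for 12 and below for 5 at 6 h (44% and 47.3%). Irf1 encodes an activator of both antiviral and class I genes. Its levels at 3 h were 13.8 FPKM in PBS, 15.4 in Omomyc, 13.7 in FPP-1746 and 23.8 in the fusion, and at 6 h 18.0, 20.1, 18.9 and 26.4 FPKM in the same order, which is kept below. The fusion column was the highest at both times, with log2 ratios over PBS of 0.75 and 0.53, short of 2-fold.

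Irf2, a factor that binds the same sites as IRF1 and can oppose it, stood at 10.96, 10.6, 10.8 and 9.42 FPKM at 3 h (PBS, Omomyc, FPP-1746, fusion) and at 11.7, 11.5, 11.2 and 17.0 FPKM at 6 h. Irf3, the factor that relays sensor signals to the interferon genes, stood at 7.67, 6.93, 6.75 and 5.51 FPKM at 3 h and at 11.5, 10.9, 11.6 and 7.83 at 6 h. The fusion was the lowest for Irf2 at 3 h and the highest at 6 h, and the lowest for Irf3 at both times (log2 ratios -0.41 and -0.50). Irf9 and Stat2, which encode DNA-binding and activating subunits of the interferon-activated complex, were low. Irf9 was 2.34 FPKM in PBS and 1.90 with the fusion at 3 h, and 2.99 and 5.23 at 6 h. Stat2 was 0.779 and 0.711 FPKM at 3 h, and 0.844 and 2.19 at 6 h. Stat2 thus had the highest log2 ratio over PBS of the 19 at 6 h, 0.79, under the 2-fold rule. PBS was its lowest column at 6 h, with Omomyc at 1.31 FPKM and FPP-1746 at 1.13. The fusion ratio was 0.47 over Omomyc and 0.58 over FPP-1746. Irf5 and Irf7, which amplify interferon production in immune cells, and Nlrc5, a coactivator of class I genes, were under the filter. Irf7 reached 0.432 FPKM at most, with the fusion at 3 h, and Nlrc5 0.0237.

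All 3 RNA sensors were under 1 FPKM on average. Ddx58, which encodes RIG-I, was at 0.743, 0.832, 0.813 and 0.887 FPKM at 3 h and at 1.11, 1.10, 0.892 and 0.806 at 6 h. Dhx58, encoding the regulator LGP2, was at 0.439, 0.331, 0.457 and 0.505 FPKM at 3 h and at 0.542, 0.459, 0.390 and 0.284 at 6 h. In both genes the fusion was the highest of 4 columns at 3 h and the lowest at 6 h. Ifih1, encoding MDA5, did not share this order. It was at 0.269, 0.352, 0.367 and 0.319 FPKM at 3 h and at 0.262, 0.310, 0.181 and 0.283 at 6 h. The share of all genes with such an order was not taken.

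Isg15 encodes an interferon-induced, ubiquitin-like protein that becomes attached to other proteins, and it carries 3 of the matches printed above. It stood at 31.4, 33.4, 34.5 and 35.2 FPKM at 3 h and at 33.7, 34.04, 22.2 and 32.8 at 6 h. The fusion and PBS columns were close, with log2 ratios of 0.16 and -0.04, and the low value was that of FPP-1746 at 6 h. Trim25, a ubiquitin ligase known for activating RIG-I, was the only one of the 19 to fall past 2-fold on FPKM + 1. Its level was 13.1, 12.1, 12.0 and 5.60 FPKM at 3 h and 11.6, 11.6, 12.3 and 14.8 at 6 h. The log2 ratio over PBS was -1.10 at 3 h and 0.33 at 6 h, and at 3 h it was -0.77, short of the rule, with 5 FPKM added in place of 1. Parp9, an ADP-ribosyltransferase partner of the ubiquitin ligase gene Dtx3l, was at 0.913, 0.878, 0.909 and 0.532 FPKM at 3 h and at 1.44, 1.42, 1.25 and 0.853 at 6 h, lowest with the fusion at both times. The table gives both genes the same locus, chr16:35926601-35972707 in mm9, so their reads may be mixed. Usp18, which removes ISG15, and Parp14 reached 0.162 and 0.0374 FPKM at most.

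Antiviral effectors were split between a few abundant membrane proteins and many genes near 0. Of the 19, 6 passed the filter; with the fusion at 3 h their median log2 ratio was 0.29, and 4 lay above PBS. At 6 h the median was -0.048 and 3 lay above. Of all 10262 tested genes, 5148 lay above PBS at 3 h and 4913 at 6 h, so these counts were near the background. Bst2 encodes tetherin, which holds budding virus at the cell surface. It stood at 22.3, 26.3, 24.7 and 45.3 FPKM at 3 h and at 26.1, 26.6, 26.6 and 30.3 at 6 h. The log2 ratio was 0.99 at 3 h, just inside the 2-fold limit, and 0.21 at 6 h. With 0.1 FPKM added instead of 1 it was 1.02 at 3 h and counted as higher.

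Ifitm3 and Ifitm2 are close paralogs whose proteins block virus entry. Ifitm3 was at 579, 607, 609 and 1045 FPKM at 3 h and at 634, 625, 546 and 717 at 6 h. Ifitm2 was at 270, 273, 274 and 379 FPKM at 3 h and at 279, 269, 258 and 231 at 6 h. Both were highest with the fusion at 3 h, while at 6 h Ifitm2 was lowest with it. Ifi35, which encodes a leucine-zipper protein induced by interferon, was at 7.11, 7.60, 7.52 and 7.65 FPKM at 3 h and at 7.16, 7.54, 5.45 and 10.1 at 6 h. Its fusion column exceeded Omomyc by little at 3 h and was highest at 6 h, when FPP-1746 was lowest.

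A pair of effectors were lowest with the fusion at both times. Ifit2, which encodes a tetratricopeptide protein that restrains viral translation, was at 2.71, 2.61, 2.52 and 2.16 FPKM at 3 h and at 3.84, 3.82, 4.003 and 2.56 at 6 h. Rtp4, which encodes a chaperone of receptor proteins, was at 1.48, 1.11, 0.919 and 0.805 FPKM at 3 h and at 1.41, 1.81, 1.37 and 0.566 at 6 h. Rtp4 had the lowest log2 ratio of the 19 at 6 h, -0.62, and -1.18 with 0.1 FPKM added. Among the 13 effectors under the filter, Ifit1 and Samd9l came closest to it. Ifit1, with 2 response-element matches, was at 1.01, 1.16, 1.34 and 0.649 FPKM at 3 h and at 1.04, 1.07, 0.644 and 0.678 at 6 h. Samd9l, an antiviral translation inhibitor, was at 1.17, 1.06, 1.09 and 0.334 FPKM at 3 h and at 0.934, 0.840, 0.730 and 1.43 at 6 h. Gbp2, a guanylate-binding GTPase, was 0.558 FPKM in PBS and 1.33 with the fusion at 6 h.

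Many genes of the list had little RNA in every treatment. Of the 43 genes, 24 were under the filter, and no column of these exceeded 1.43 FPKM. Means under 0.1 FPKM were found for 11 genes, whose highest value in any column was 0.162. They include Mx1 and Mx2, dynamin-like GTPases, Oas1a, an RNA-activated nucleotide synthetase, and Rsad2 and Cmpk2, which act together to make a nucleotide that halts viral RNA synthesis. Mx1 was at 0.0324 FPKM with the fusion at 3 h and listed at 0 in PBS. At such levels a difference between columns was not detectable.

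Antigen presentation was the group that lay most evenly to one side. All 5 measured genes were above the other 3 treatments with the fusion at 3 h (background 46%). Their median log2 ratio over PBS was 0.81. At 6 h 4 of 5 were above (background 44%), with a median of 0.34. B2m, which encodes the light chain of all class I molecules, rose past 2-fold at 3 h. It stood at 611, 624, 627 and 1250 FPKM at 3 h and at 609, 600, 610 and 856 at 6 h, with log2 ratios of 1.03 and 0.49. The first 3 treatments spanned a narrow range at each time, and the fusion was outside it. Its 3 h ratio was 0.40 when the columns were brought to 1 common distribution (quantile normalisation). It was 0.83 after subtracting 0.20, the median ratio of genes of like transcript length, for which the tested genes were put in 5 groups of about equal size and B2m fell among 1798 genes of up to 1821 bases. Genes under 1000 bases had a higher median, given with the lengths below. The deposited locus, chr2:121945844-122011925 in mm9, is shared with Patl2 and Trim69.

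H2-K1 and H2-D1 encode class I heavy chains, and H2-T23 encodes a nonclassical one that presents leader peptides. H2-K1 was at 37.2, 38.5, 37.7 and 65.9 FPKM at 3 h and at 34.5, 34.05, 31.0 and 43.9 at 6 h. H2-D1 was at 2.38, 2.53, 2.58 and 5.20 FPKM at 3 h and at 1.95, 2.54, 2.64 and 3.60 at 6 h. H2-T23 was at 1.05, 1.06, 1.05 and 1.64 FPKM at 3 h and at 1.21, 0.891, 1.02 and 1.53 at 6 h. The fusion was highest for each at both times, with 3 h log2 ratios of 0.81, 0.88 and 0.37; H2-D1 passed the rule (1.10) with 0.1 FPKM added. Class I genes are near copies of each other, and H2-D1 and H2-T23 share a deposited locus with other rows, so reads could be split among them.

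Tapbp encodes tapasin, which loads peptide on class I molecules. It was at 24.97, 26.4, 26.7 and 39.5 FPKM at 3 h and at 28.9, 30.2, 24.2 and 24.9 at 6 h, so it was highest with the fusion only at 3 h. The peptide transporter genes Tap1 and Tap2 were under the filter. Tap2 was at 0.385 FPKM in PBS and 0.634 with the fusion at 3 h, and Tap1 at 0.0761 and 0.148.

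**Figure D2:**
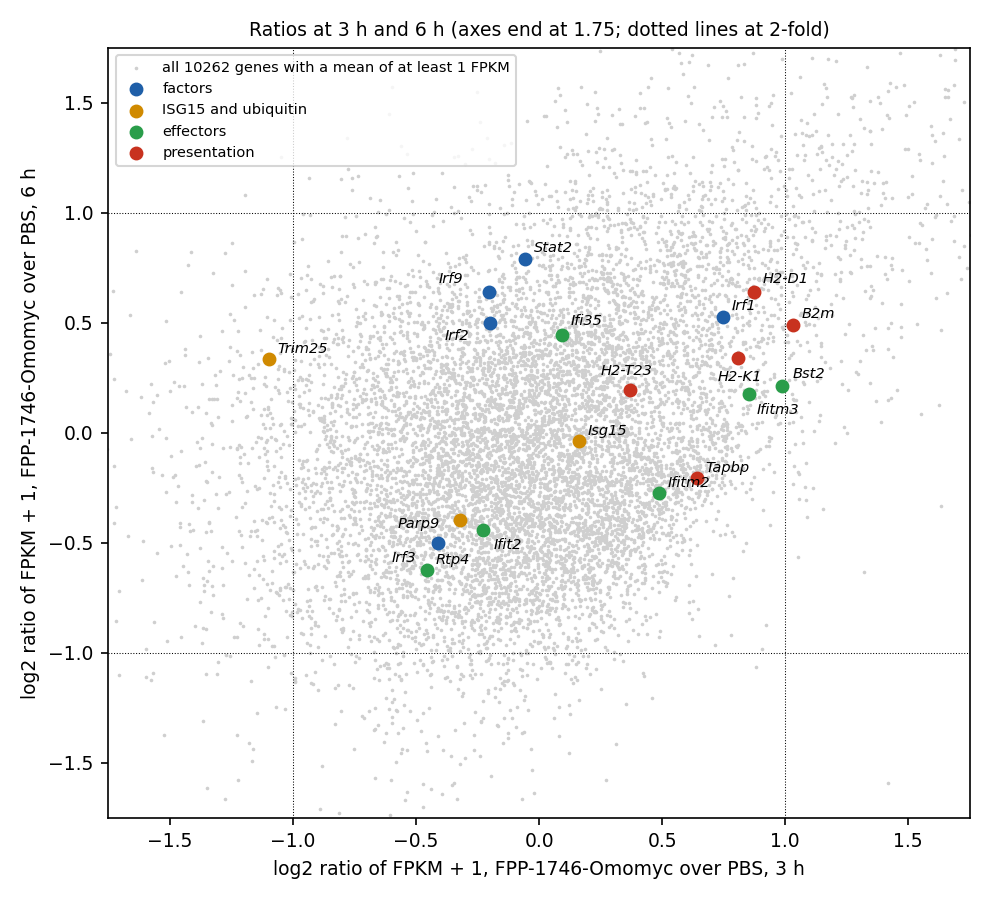
Log2 ratio of FPKM + 1 of the fusion over PBS at 3 h (x axis) and at 6 h (y axis), for the 19 genes above the filter over all tested genes in grey, with the axes ending before the most extreme genes. B2m lies at 1.03 and 0.49, Trim25 at -1.10 and 0.33, and dotted lines mark 2-fold.

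Transcript length moved with the same ratios. Lengths from GENCODE vM21 were found for 8980 of the 10262 tested genes, 87.5%, and for all 19 list genes. With the fusion at 3 h, the median log2 ratio over PBS was 0.41 for the 404 tested genes whose longest transcript was under 1000 bases, and -0.038 for those of 4000 bases or more. At 6 h the medians were -0.23 and 0.14. The 5 list genes under 1000 bases, Isg15, Bst2, Ifitm2, Ifitm3 and B2m, had medians of 0.85 and 0.18. With the median of the same 5 length groups subtracted, the median of the 19 was -0.0108 at 3 h and 0.4234 at 6 h, so the 3 h median lost its sign and the 6 h median was larger. This adjustment was chosen after the values were seen.

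Genes on the path to these targets are given by lists, which were chosen with earlier results of these data known. A count past the background is therefore a description of the list. The shares of all tested genes past 2-fold, 6.13% higher and 4.42% lower at 3 h and 7.13% and 3.34% at 6 h, are the background for each list. Of 19 interferon genes in the table, 16 were at 0 in every column and none passed the filter. Among 10 measured receptor, kinase and STAT genes, 1 was higher at each time, with no gene lower and medians of 0.11 and 0.25. It was Stat3, a factor activated by cytokine receptors, at 8.44 FPKM in PBS and 18.6 with the fusion at 3 h, and at 8.62 and 22.1 at 6 h. Ifnar2, a chain of the type I interferon receptor, was at 28.8 and 47.9 FPKM at 3 h, short of the rule.

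Signalling from nucleic acid sensors had 11 measured genes, none higher (background 6.13%) and 1 lower (4.42%) at 3 h. At 6 h 2 were higher (7.13%) and none was lower (3.34%), and the medians were 0.33 and 0.13. Mavs, the adaptor downstream of RIG-I, fell from 24.9 FPKM in PBS to 8.90 with the fusion at 3 h (log2 -1.39) and stood at 30.6 and 23.9 at 6 h. At 6 h Tlr4, the endotoxin receptor, was at 2.72 FPKM in PBS and 10.5 with the fusion, and Myd88, its adaptor, at 12.9 and 29.7. Both rose past the rule, and they are the 2 genes behind the 6 h count. The best known ligand of TLR4 is bacterial endotoxin, not a nucleic acid.

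Negative regulators of the pathway had 10 measured genes, of which 4 were higher at 3 h (background 6.13%) and 2 at 6 h (7.13%). None was lower (4.42% and 3.34%), and the medians were 0.63 and 0.52. Socs3, an inhibitor of JAK kinases, was at 15.4 FPKM in PBS and 72.6 with the fusion at 3 h, and at 12.5 and 39.4 at 6 h. Its relative Socs1 was at 23.8 and 77.1 FPKM at 3 h, and at 15.2 and 24.2 at 6 h, where it missed the rule. Tnfaip3, a ubiquitin-editing brake on NF-kB, rose at 3 h (log2 1.13), and Irf2bp2, which encodes a partner of IRF2, rose at both times (1.07 and 1.36).

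Another 25 interferon-induced genes were measured, of 61 in the table. At 3 h 2 were higher (background 6.13%) and 1 lower (4.42%). At 6 h 6 were higher (7.13%) and 1 lower (3.34%), and the medians were 0.25 and -0.024. The chemokine gene Cxcl10 was higher at both times (log2 4.55 and 1.505), and Ifi27l2a at 3 h, with 3.95 FPKM in PBS and 9.90 with the fusion. At 6 h Zc3hav1, an antiviral RNA-binding protein gene, was at 14.8 FPKM in PBS and 43.6 with the fusion. Ifi203, Tor3a, Ifi204 and Adar, the last an RNA-editing enzyme gene, also rose at 6 h, by 1.34, 1.25, 1.13 and 1.01 on the log2 scale. The rows of Cxcl10 and Adar share a locus with other genes, so neighbours' reads may be included. Apol9b was lower at 3 h, with 8.21 FPKM in PBS and 3.59 with the fusion, though reads could be split with its near copy Apol9a, and Isg20, an exonuclease gene, at 6 h (-1.05). Among 19 further genes of antigen processing and the MHC, H2-M3 was higher at both times (1.15 and 1.28) and no gene was lower. The median was 0.43 at 3 h, with 18 of 19 above PBS, and -0.13 at 6 h, with 7 above. Over all 10262 tested genes, 5148 were above PBS at 3 h and 4913 at 6 h. H2-M3 presents formylated peptides, and stood at 8.51 FPKM in PBS and 20.1 with the fusion at 3 h.

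**Figure D3:**
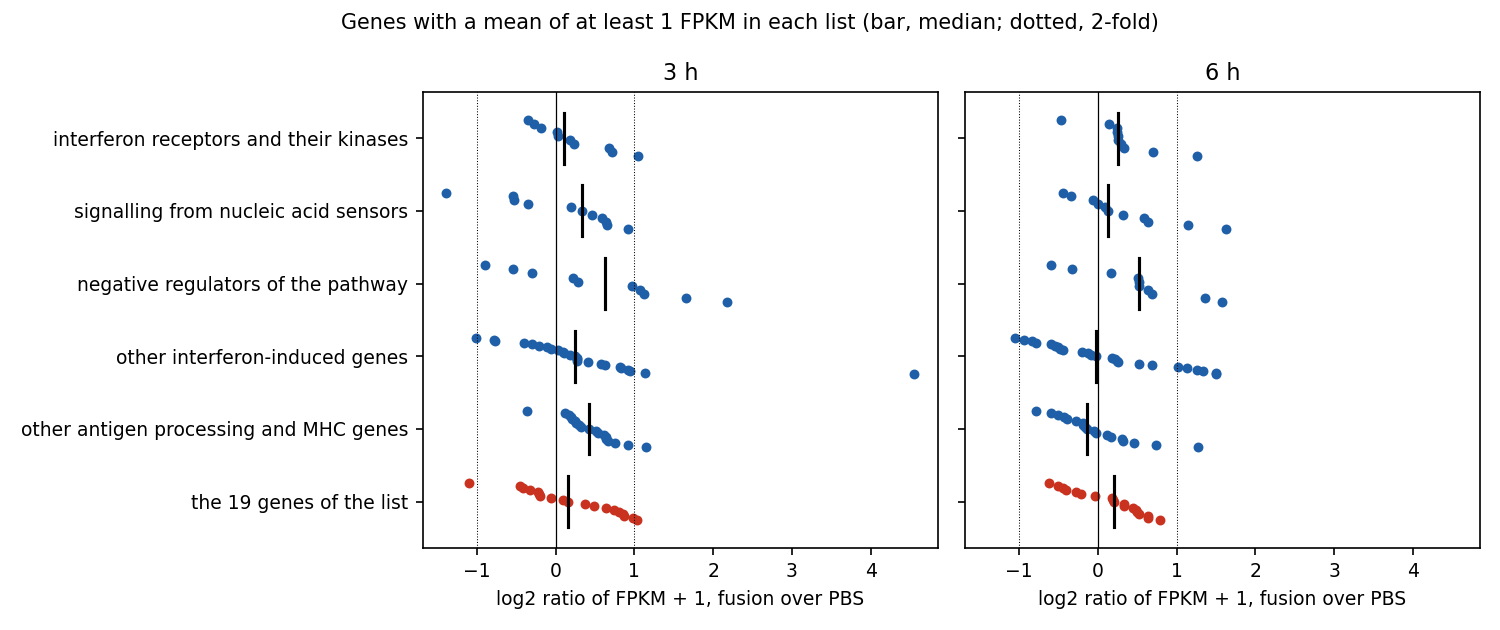
Log2 ratio of FPKM + 1 of the fusion over PBS for each gene above the filter in the list and in the other genes of the pathway, at 3 h and at 6 h; each point is a gene, bars are list medians and dotted lines mark 2-fold. Negative regulators have medians of 0.63 and 0.52, and other antigen processing genes go from 0.43 to -0.13.

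FPP-1746 alone at 6 h gave low values for many genes of the list. This was noticed in the values and is a description. Of the 43 genes, 28 lay below both PBS and Omomyc of 6 h, 65.1%, against 29.8% of the 16441 genes above 0 in any column. At 3 h 11 of 43 did so, against 26.3%. Among the 19 above the filter it was 9 (background 32.4%), so 19 of the 28 were genes with little RNA. The 28 include genes with a mean under 0.1 FPKM, where a difference between columns was not detectable. The differences were small. At a limit of 1.25-fold below PBS on FPKM + 1, chosen after the values were seen, 4 of 43 passed at 6 h (background 1.37%), namely Isg15, Ifi35, Gbp2 and Gbp3, and none of the 43 passed with Omomyc (0.803%). On FPKM itself some low genes differ more: Irf7 was at 0.275 FPKM in PBS and 0.103 with FPP-1746, and Ifit1 at 1.04 and 0.644. Irf7 in PBS was at 0.129 FPKM at 3 h. Some low genes went the other way at 6 h, with Nlrc5 at 0.00873 FPKM in PBS and 0.0154 with FPP-1746, and Rsad2 at 0.0278 and 0.0427. Isg15 was 33.7 FPKM in PBS and 22.2 with FPP-1746, and ranked 16 from the lowest of 10121 tested genes that are not small RNA records.

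Other interferon-induced genes gave 5 of 25 past the same limit, against 1.67% of all genes above the filter. Ccl5, an inflammatory chemokine gene, stood at 30.3, 27.7, 35.6 and 54.3 FPKM at 3 h and at 81.5, 77.5, 36.3 and 74.6 at 6 h. FPP-1746 did not share the higher 6 h level of the other treatments, and the log2 ratio of -1.15 ranked 3 from the lowest. Over time, 31 of the 43 genes were higher at 6 h than at 3 h in PBS (72.1% against 46.5% of genes above 0) and 30 with Omomyc (69.8% against 44.8%). With FPP-1746 it was 18 (41.9% against 43.7%) and with the fusion 21 (48.8% against 47.3%). These counts over time include the genes near 0. Among the 19 above the filter, 14 were higher at 6 h in PBS, against 4914 of 10262 tested genes. With 1 column per group, whether a single replicate carries these values cannot be told.

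**Figure D4:**
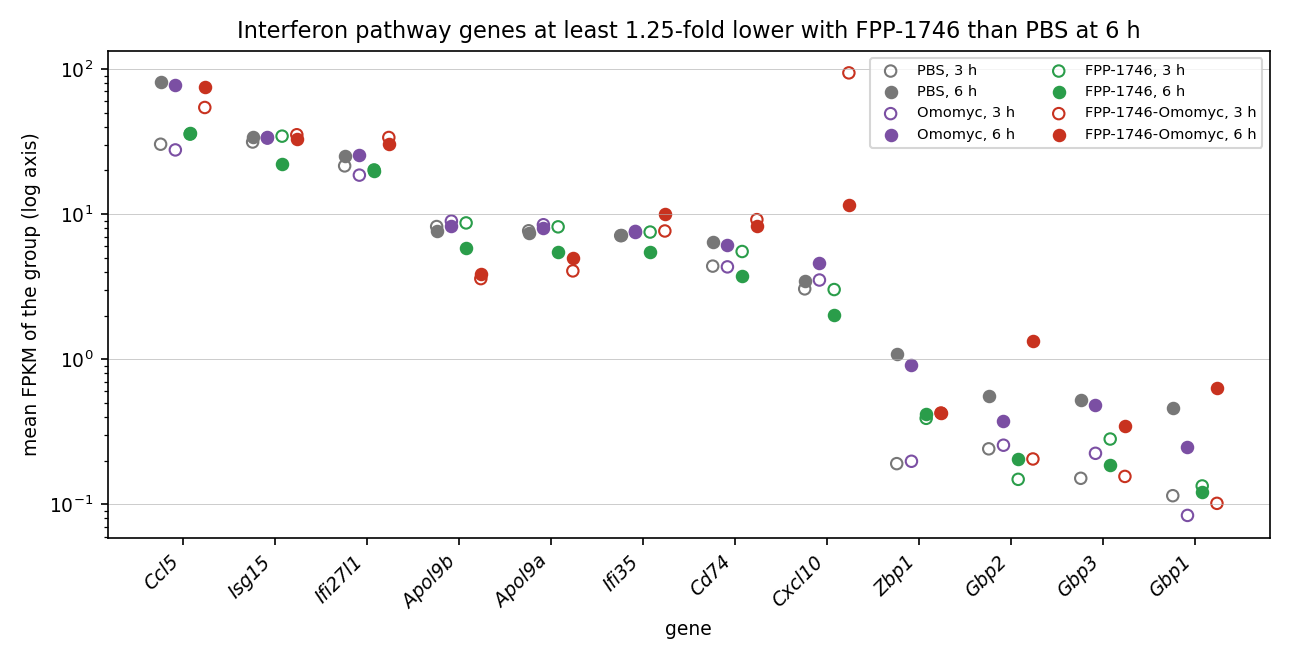
Mean FPKM on a log axis, by treatment at 3 h (open circles) and at 6 h (filled circles), of the genes of the list and of the pathway lists that were at least 1.25-fold under PBS with FPP-1746 at 6 h; each point is 1 averaged group. Ccl5 stands at 36.3 FPKM with FPP-1746 at 6 h against 81.5 in PBS, and Isg15 at 22.2 against 33.7.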

How the data were processed

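RNA-seq of T11 cells was deposited by the authors as 1 table of FPKM, with 1 averaged column for each of 8 groups of 3 replicates. Per the submitters' processing notes, Cuffnorm 2.2.1, Cufflinks 2.2.1, STAR 2.1.3 and bcl2fastq 2.17.1.14 were used with build mm9; how they were ordered and set, the annotation and the use of strand are not given in the sources. Positions are the table's, with starts shifted to count from 1.

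Log2 ratios of FPKM + 1 were taken between columns with Python 3.11.15, pandas 2.3.3 and numpy 2.4.6, and drawn with matplotlib 3.10.9. Genes averaging 1 FPKM or more were compared, and at least 2-fold was called. The script that makes the calls was checked on simulated columns with known changes. Without replicate values there was no statistical test. The genes and lists were chosen with earlier results of these data known. All 43 genes could be named; values of all 8 columns were due for those past 2-fold against PBS, those with the fusion outside the other treatments at both times, and the 2 most abundant per role. Of the other pathway genes, up to 4 per list and time with the largest ratios could be named; 1 that the rule would name is not reported here. Ifit1, Samd9l and Tapbp in full, and Ccl5, Ifi204, Adar and Isg20, were added after their values were seen. Alternatives were other pseudocounts, filters, scalings, folds, rows with a locus of their own, and length.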

Additional observations from a re-analysis of the deposited data

How the results depend on the processing

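No paired analysis was possible because the averaged columns carry no replicate, and for the same reason no replicate could be left out. Counts are of the 19 genes, fusion over the named reference. Among these, only the 1.5-fold counts have the share of all tested genes beside them. The others are given without a background and do not show an excess or a lack. With 0.1 FPKM added, 3 were higher than PBS at 3 h, and at 6 h 1 was higher and 1 lower (median 0.3171); calls were 1 and 2 over FPP-1746 and 3 and 2 over Omomyc, at 3 h and 6 h. With 5 FPKM added, 0 were lower than PBS at 3 h and 0 were called over Omomyc at 3 h, and the 6 h medians were 0.1961 over FPP-1746 and 0.1885 over Omomyc. With no filter, all 43 genes gave medians over PBS of 0.02932 at 3 h and -0.004829 at 6 h, and at 6 h 0.05032 over FPP-1746 and -0.006698 over Omomyc; many genes near 0 enter here. Quantile normalisation left 0 higher than PBS and 0 called over Omomyc at 3 h, with a 6 h median of 0.2177 over FPP-1746. Without rows of a shared locus, which takes out B2m, 0 were higher than PBS and 0 called over Omomyc at 3 h, the 6 h median over Omomyc was 0.1997, and 5 lay above all treatments at both times. At 1.5-fold, 7 were higher than PBS at 3 h (15.7% of all tested genes), and 3 higher (17.4%) and 1 lower (15.2%) at 6 h; calls were 7 (28.6%) and 3 (31.8%) over FPP-1746 and 7 (28%) and 2 (32%) over Omomyc. Centred on genes of like length, chosen after seeing the data, 0 were higher than PBS and 0 called over Omomyc at 3 h; medians were -0.0108 and 0.4234 over PBS and -0.08349 and 0.517 over FPP-1746. FPP-1746 at 6 h lay below PBS and Omomyc for 9 genes with the filter. Apart from the filter and locus changes the cause was not tested. Of 32 ratios of named genes, 29 kept 1 sign under every setting run.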
